A study of Azumapecten farreri with 9 samples.

Results

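Hemocyte miRNAs of scallops given exosomes tied to lipopolysaccharide (LPS) stimulation were compared with those of scallops given normal exosomes, with 3 small RNA libraries in each group. The members of this comparison were all sequences of the deposited table. Its 417 lines hold 396 different sequences once lines with an identical sequence are merged, and 341 of them were above 0 in at least 1 exosome library. Sequences with a normalized count of 10 or more in at least 3 of the 6 exosome libraries were tested, which kept 93 with a registered name and 48 predicted candidates. Of the 255 others, 55 were listed at 0 in all 6 exosome libraries, 148 stayed under 10 wherever they were listed, and 52 reached 10 in 1 or 2 libraries only. The tested sequences held nearly all of the signal, with a lowest share of 99.9859% in an exosome library; 111 of them had 10 or more in all 6 libraries, and 12 had it in 3.

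The animals were Zhikong scallops (Azumapecten farreri, also named Chlamys farreri), and total RNA was taken from their hemocytes. Another group of 3 libraries came from animals given phosphate-buffered saline (PBS) in place of exosomes; its values are given beside the exosome groups as a description. All were given by injection. The exosome groups thus share the injection of vesicles and differ in whether LPS, a lipid and sugar component of the outer membrane of gram-negative bacteria, had been used. The labels give neither the source cells or dose of the exosomes, nor whether LPS acted on the donor animals or on isolated cells, nor the time between injection and sampling. They also do not say whether the 3 libraries of a group are separate animals or pools, so a p-value here reflects how these libraries varied among themselves, which may be technical variation alone.

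A miRNA is a short RNA that guides an Argonaute protein to messenger RNAs, which are then translated less or degraded. Target choice rests mainly on the seed, the bases near the 5′ end that pair with the target, so sequences with 1 seed form a family. Exosomes are small vesicles that cells release and that carry proteins and RNA. Hemocytes are the circulating cells of bivalves, which lack antibodies and rely on these cells for phagocytosis, encapsulation and the release of antimicrobial factors. In bulk RNA, fewer cells of a type and less RNA per cell cannot be told apart, so a lower value here can stand for either.

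The sequences on which the results turn are printed 5′ to 3′ as the deposited table lists them, with T for U and the seed (bases 2 to 8) in capitals. The prefix of a registered name gives the species it was taken from: mle is the nudibranch Melibe leonina, lgi the limpet Lottia gigantea, cte the annelid Capitella teleta and cel the nematode Caenorhabditis elegans. Names starting with PC are predicted candidates with no registered name. The first 7 lines are the sequences that passed the test, and the next 6 are relatives or near misses that the text sets beside them.
PC-3p-1990_749: tGTAATTTgtgctctcctc
mle-miR-31-5p: aGGCAAGAtgttggcatagctga
mle-miR-10b-5p_R-1_2ss9GT21TA: tTACCCTGtagaaccgagcgagt
PC-3p-83_47257: aAATGCCCccagaaatcctaaa
mle-miR-216b-5p: tAATATCAgctggtaatcctgag
mle-miR-263a-5p: aATGGCACtggtagaattcacgg
mle-miR-1994a-3p: tGAGACAGtgtgtcctcccttg
cel-miR-72-5p_R+2: aGGCAAGAtgttggcatagctgaaa
mle-miR-1994a-3p_R-2: tGAGACAGtgtgtcctccct
lgi-miR-10: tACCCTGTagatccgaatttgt
cte-miR-263_R+2_1ss10GT: cTTGGCACttgtagaattcactga
mle-miR-1989b-5p_1ss11TC: tCAGCTGTcacgatgccttctt
PC-5p-5000_271: tCAGCTGTcacgatgccttcttt

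The table also holds 6 sequences of 19 bases that differ from each other at 6 positions alone. They are shown because PC-3p-1990_749 is 1 of them and because different members were listed in different groups. Capitals mark the variable positions.
PC-3p-1990_749: tgtaatTtGtGcTctCcTc
PC-3p-1430_1100: tgtaatTtGtGcGctCcTc
PC-3p-10409_117: tgtaatCtTtGcActCcTc
PC-3p-21485_45: tgtaatCtGtGcActTcCc
PC-3p-31246_25: tgtaatCtGtAcActCcCc
PC-3p-552_3225: tgtaatCtTtGcActCcCc

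Of the tested sequences, 7 changed between the exosome groups (4.96% of those tested), 6 of them higher (4.26%) and 1 lower (0.709%) with LPS exosomes. A sequence counts as changed at an adjusted p under 0.05 (limma, Benjamini-Hochberg over all tested sequences), and 22 had an unadjusted p under 0.05. The higher ones were PC-3p-1990_749 and the registered miR-31, miR-10b, miR-216b, miR-263a and miR-1994a; the lower one was PC-3p-83_47257. PC-3p-1990_749 met the minimum of 10 through the LPS exosome libraries alone, so it had to differ to be tested and its p is no support; the other 6 reached 10 in all 6 exosome libraries. Fold changes are LPS exosomes over normal exosomes, taken from log2(value + 1). Low sequences listed in all 6 exosome libraries therefore appear less changed than they are. Where a library holds a zero, the fold depends on the added 1 and can appear larger instead. With zeros set to the lowest value of the library, the log2 fold change of PC-3p-1990_749 went from 7.79 to 6.197. That of PC-3p-9728_126 went from -3.48 to -2.84. Leaving out a library moved the count: 2 sequences changed without LPS exosomes replicate 1, 4 without replicate 2, 4 without replicate 3, 3 without normal exosomes replicate 1 and 4 without its replicate 3. The number was 6 without normal exosomes replicate 2, 9 without PBS replicate 1 and 5 without PBS replicate 2 or 3. Each of these counts includes PC-3p-1990_749.

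**Figure D1:**
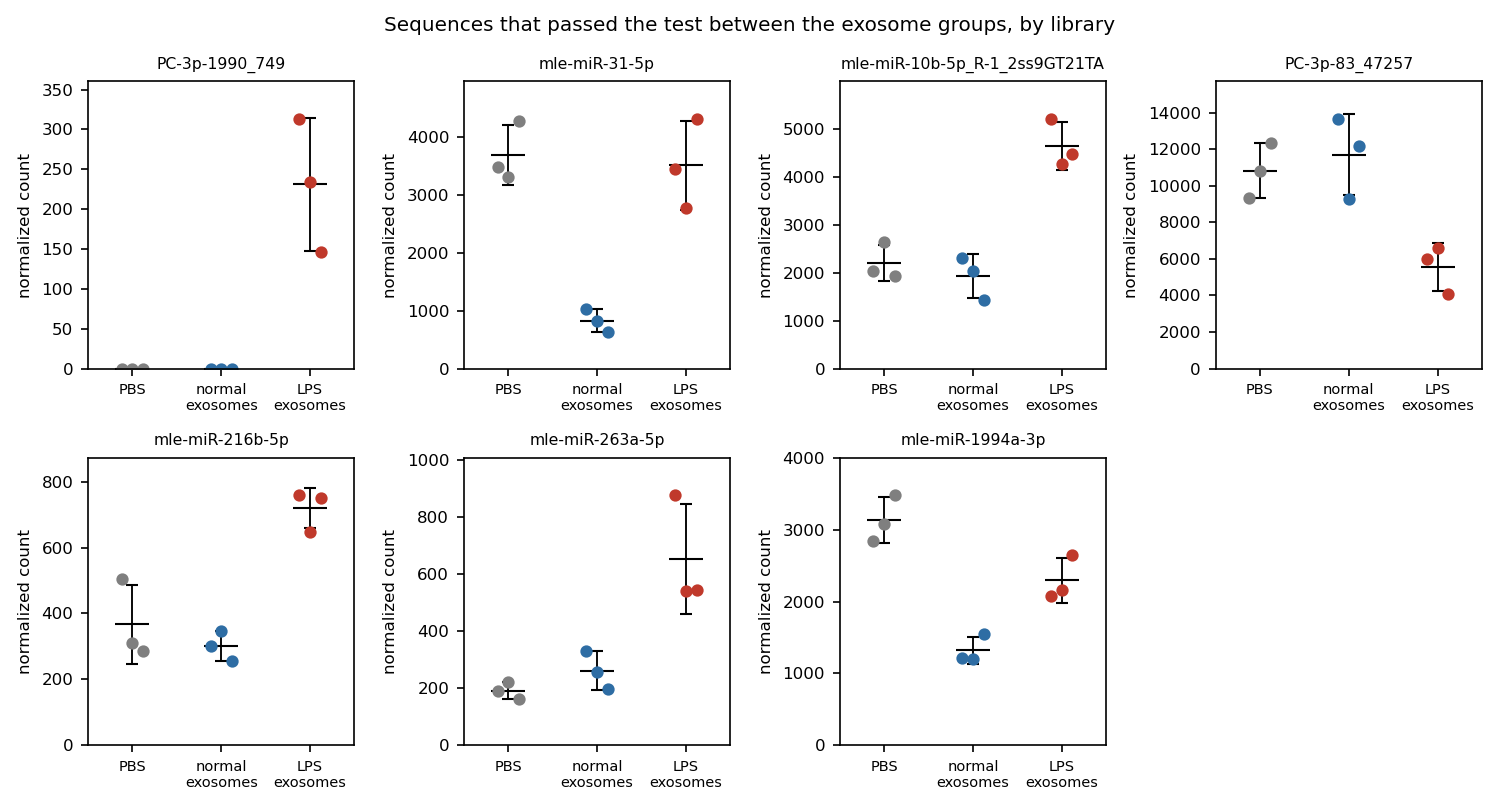
Normalized counts (y axis, linear from 0) of the 7 changed sequences in each library of the PBS, normal exosome and LPS exosome groups (points), with the mean (long bar) and SD (whiskers) of 3 libraries. In every panel the LPS exosome points and the normal exosome points do not overlap; PC-3p-83_47257 is the panel where LPS exosomes lie lower, at 4087 to 6612 against 9292 to 13669. For PC-3p-1990_749 the lack of overlap follows from the filter, which it passed through the LPS exosome libraries alone.

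The scaling of the libraries bears on the direction of small differences. Normalized totals were 5249401, 4524514 and 3977077 in the LPS exosome libraries and 6309624, 5709178 and 5451288 in the normal exosome libraries, so every LPS exosome library had a lower total than every normal exosome library. The median log2 fold change of the tested sequences was -0.17 on the deposited values, 0.17 with all libraries scaled to equal totals, -0.10 with median-of-ratios scaling and -0.08 with quantile normalization. At equal totals 8 sequences changed, 8 higher and 0 lower, against 6 higher and 1 lower on the deposited values; with quantile normalization 3 changed, 3 higher and 0 lower. The 8 at equal totals were the 6 higher sequences above with lgi-miR-10 and PC-5p-5000_271.

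Among the changed sequences that were listed in every exosome library, miR-31 differed most. In mammals miR-31 is studied in T cells, where FOXP3 is a reported target; no role in bivalve hemocytes is assumed here. Its normalized counts were 3448, 2783 and 4318 with LPS exosomes and 1029, 816 and 633 with normal exosomes. The groups were far apart, since the lowest LPS exosome library stood well above the highest normal exosome library. The difference was 4.27-fold, a log2 fold change of 2.09 ± 0.24 (SE), with an adjusted p of 0.000669 in limma. It passed in all 22 alternative settings, with log2 fold changes of 1.92 to 2.45. The PBS libraries held 3487, 3312 and 4289.9, within the range of the LPS exosome group and above all normal exosome libraries. As a share of the library's signal miR-31 made up 0.0786% ± 0.0261 (SD, n = 3) with LPS exosomes, 0.0141% ± 0.00236 with normal exosomes and 0.0752% ± 0.0156 with PBS.

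cel-miR-72-5p_R+2 is miR-31-5p with 2 more bases at its 3′ end and the same seed, and it was too low to be tested. It was listed at 12.4, 9.86 and 19.3 with LPS exosomes, at 0, 6.49 and 0 with normal exosomes, and at 21.6, 15.4 and 22.1 with PBS. The short form therefore set the level of the family.

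The miR-10 family lies within Hox gene clusters in many animals, and in human tumours miR-10b is known for its link to cell invasion. Normalized counts of the scallop sequence were 5209, 4261 and 4469 with LPS exosomes and 2315, 2044 and 1429 with normal exosomes. All LPS exosome values lay above all normal exosome values, with a log2 fold change of 1.29 ± 0.22 (SE; 2.45-fold) and an adjusted p of 0.0103 in limma. It lost its call in 1 of 22 alternatives, without LPS exosomes replicate 1 (adjusted p of 0.0668, limma). PBS libraries held 2037, 2634 and 1924, which meets the range of the normal exosome group only.

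The seed of lgi-miR-10, ACCCTGT, overlaps that of miR-10b, TACCCTG, with a shift of 1 base. It was listed at 884, 529 and 388 with LPS exosomes, at 262, 242 and 159 with normal exosomes and at 296, 584 and 427 with PBS. The exosome groups did not overlap, but the log2 fold change of 1.38 ± 0.38 missed the threshold (adjusted p of 0.0780, limma). It passed at equal totals (log2 fold change 1.73, adjusted p of 0.0040) and with median-of-ratios scaling (1.46, adjusted p of 0.0442), both from limma, and with a filter of 50 in place of 10 (0.0458).

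miR-216b-5p belongs to a family best known from the vertebrate pancreas. Its normalized counts were 758, 648 and 751 with LPS exosomes and 302, 347 and 255 with normal exosomes. The LPS exosome libraries were thus all above the normal exosome ones, 2.40-fold on average, with a log2 fold change of 1.26 ± 0.26 and an adjusted p of 0.0261 in limma. The call was lost in 7 of 22 alternatives: without filtering (adjusted p of 0.0509), with quantile normalization (0.126), and without any 1 of LPS exosomes replicates 1, 2 and 3 and normal exosomes replicates 1 and 3 (0.0697 to 0.0948). PBS libraries held 504, 309.9 and 285, which meets the normal exosome range and stays below every LPS exosome library.

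miR-263a-5p is known from the fruit fly, where it protects cells of sensory bristles from cell death. It was listed at 877, 541 and 545 with LPS exosomes and at 331, 256 and 198 with normal exosomes. LPS exosomes replicate 1 was the highest, and the groups did not overlap. The log2 fold change was 1.31 ± 0.29 (2.48-fold), with an adjusted p of 0.0336 in limma. This call was among the least stable and was lost in 11 of 22 alternatives. The adjusted p was 0.0523 to 0.103 without any 1 of the 6 exosome libraries or PBS replicate 2 or 3, 0.0536 with the 6 exosome libraries alone, 0.0535 without filtering and 0.107 with quantile normalization. In PBS the values were 188, 222.8 and 163. The related cte-miR-263_R+2_1ss10GT, with another seed, was listed at 218, 113 and 95.2 with LPS exosomes and 85.1, 88.1 and 51.7 with normal exosomes. Its groups did not overlap either, and its log2 fold change of 0.86 ± 0.37 did not pass (adjusted p of 0.300, limma).

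miR-1994a-3p belongs to a family described from molluscs and annelids. It was listed at 2073, 2167 and 2649 with LPS exosomes, 1220.1, 1197 and 1544 with normal exosomes, and 2843, 3081 and 3483 with PBS. The 3 groups followed each other without overlap, PBS highest and normal exosomes lowest. LPS exosomes exceeded normal exosomes 1.74-fold, with a log2 fold change of 0.80 ± 0.18 and an adjusted p of 0.0363 in limma. It lost its call in 11 of 22 alternatives. The adjusted p was 0.0564 to 0.136 without any 1 of the 3 LPS exosome libraries, normal exosomes replicates 1 and 2 and PBS replicates 2 and 3, 0.0566 with the 6 exosome libraries alone, 0.114 without filtering, 0.0672 without the trend and robust settings and 0.367 with quantile normalization. The form 2 bases shorter, mle-miR-1994a-3p_R-2, held 949.7, 922 and 909 with LPS exosomes against 608, 629 and 867 with normal exosomes. Its log2 fold change was 0.42 ± 0.26 and did not pass (adjusted p of 0.430, limma).

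PC-3p-83_47257 was the sequence that fell. It is a predicted candidate of 22 bases that shares the seed AATGCCC with aca-miR-365-3p, a lizard name in the same table. Its normalized counts were 5984, 6612 and 4087 with LPS exosomes and 13669, 9292 and 12185 with normal exosomes. It was lower in all LPS exosome libraries, 2.12-fold on average, with a log2 fold change of -1.09 ± 0.22 and an adjusted p of 0.0261 in limma. PBS libraries held 9335, 10798 and 12349.7, within the normal exosome range. Scaling to equal totals reduced the log2 fold change to -0.73, with an adjusted p of 0.0649 in limma. The call was lost in 7 of 22 alternatives: this one, without the trend and robust settings (0.0648), with quantile normalization (0.107), and without LPS exosomes replicate 1 (0.0693) or 3 (0.0599) or normal exosomes replicate 1 (0.0877) or 3 (0.0765).

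**Figure D2:**
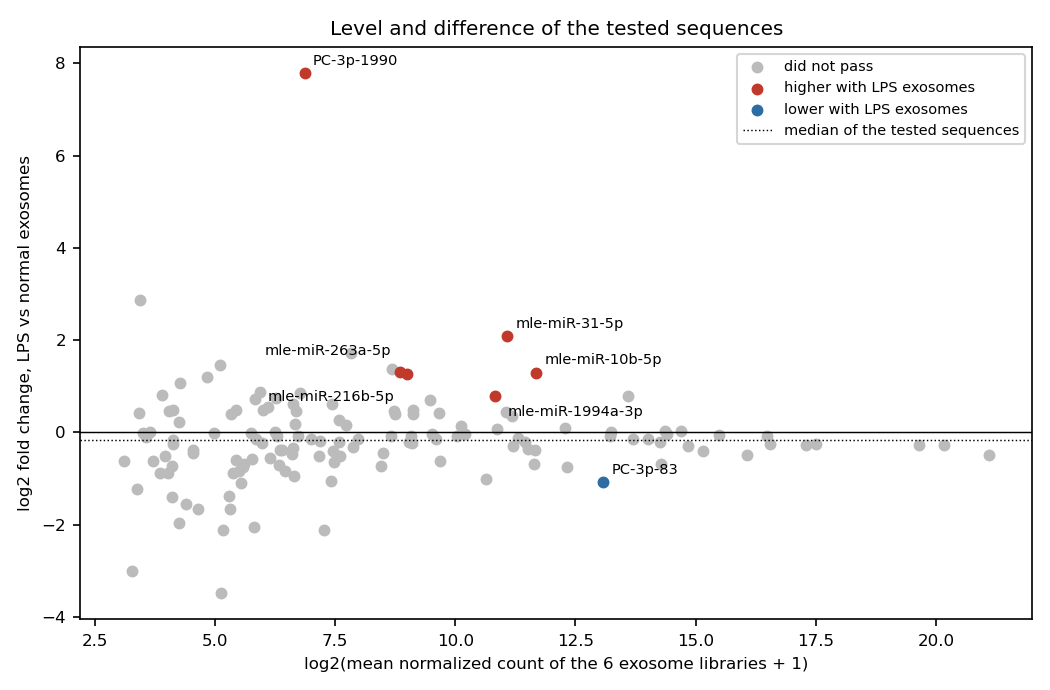
Each point is 1 tested sequence, by its mean level in the 6 exosome libraries (x axis, log2 of the normalized count + 1) and its log2 fold change, LPS over normal exosomes (y axis). Red points (6) were higher and the blue point (1) lower with LPS than with normal exosomes, and the dotted line is the median of -0.17. The fitted 7.79 of PC-3p-1990 depends on the added 1 because normal exosomes are listed at 0.

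PC-3p-1990_749 was listed at 313.2, 234 and 146.2 with LPS exosomes and at 0 in all 3 normal exosome and all 3 PBS libraries. Its adjusted p was 7.13e-05 in limma, and it passed in all 21 alternatives in which it was tested. Under the minimum of 10 it had to differ to be tested, so neither this p nor these passes are support. A fold cannot be formed when a whole group stands at 0; the lowest values listed above 0 were 1.17 to 3.08 by library, so lower amounts may be hidden. It is 1 of 3 tested sequences that reached 10 in the libraries of 1 exosome group only. The others, PC-3p-10933_110 and aca-miR-148a-3p, reached 10 in the normal exosome libraries alone, and neither changed. PC-3p-1990_749 was also 1 of 8 sequences listed at 0 throughout 1 exosome group and above 0 in every library of the other.

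The other 7 of those 8 were predicted candidates too low to be tested. PC-5p-20874_47 (9.47, 17.3 and 10.2) and PC-3p-34636_21 (3.64, 6.16 and 19.3) were listed with LPS exosomes and at 0 with normal exosomes. PC-5p-24775_36 (13.6, 3.24 and 1.75), PC-3p-32495_23 (6.81, 4.63 and 4.19), PC-3p-21485_45 (13.6, 8.34 and 23.8), PC-5p-44567_13 (5.67, 5.56 and 5.59) and PC-3p-24542_37 (11.3, 7.42 and 7.69) were listed with normal exosomes and at 0 with LPS exosomes. None of these values exceeded 23.8.

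The set of near-identical 19-base sequences differed in make-up between the groups. The table holds 32 sequences of 19 bases; 6 of them are within 4 mismatches of PC-3p-1990_749, and the next nearest has 12. The set was put together after its values were seen, so it has no test, and whether its members are miRNAs was not tested. Positions are counted from 1 at the 5′ end, with the base of PC-3p-1990_749 given first. PC-3p-1430_1100 differs by T13G, PC-3p-10409_117 by T7C, G9T and T13A, and PC-3p-552_3225 by T7C, G9T, T13A and T18C. PC-3p-21485_45 differs by T7C, T13A, C16T and T18C, and PC-3p-31246_25 by T7C, G11A, T13A and T18C. T7C lies within the seed, so the set divides into the seeds GTAATTT and GTAATCT.

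Summed over the 6 sequences, the normalized count was 425, 433 and 266 with LPS exosomes, 236, 269.7 and 659 with normal exosomes and 405, 513 and 337 with PBS. The sums overlapped between the groups, with means of 374 ± 94.1, 388 ± 235.2 and 418 ± 88.5 (SD, n = 3 each). The members did not follow the sum. PC-3p-1990_749 made up 73.8%, 54.1% and 55.0% of it in the LPS exosome libraries. PC-3p-552_3225 made up 5.49%, 20.1% and 22.4% with LPS exosomes, 57.2%, 65.8% and 67.0% with normal exosomes and 41.7%, 60.2% and 60.6% with PBS. Because PC-3p-1990_749 is part of the sum, it lowers the share of every other member with LPS exosomes, and part of this gap follows from that.

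In normalized counts PC-3p-552_3225 was listed at 23.3, 86.9 and 59.5 with LPS exosomes against 135, 177 and 441 with normal exosomes. Its groups did not overlap, and its log2 fold change of -2.13 ± 0.58 missed the threshold (adjusted p of 0.0780, limma). It passed with a filter of 50 in place of 10 (0.0458), without filtering (0.0291) and with the replicate number as a block (0.0408). PC-3p-1430_1100 was listed in all 9 libraries, at 88.1, 101 and 49.9 with LPS exosomes, 84.0, 78.8 and 178 with normal exosomes and 222.8, 193 and 121 with PBS, so the exosome groups overlapped. PC-3p-31246_25 was listed in the PBS libraries alone, at 10.8, 6.62 and 9.46.

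**Figure D3:**
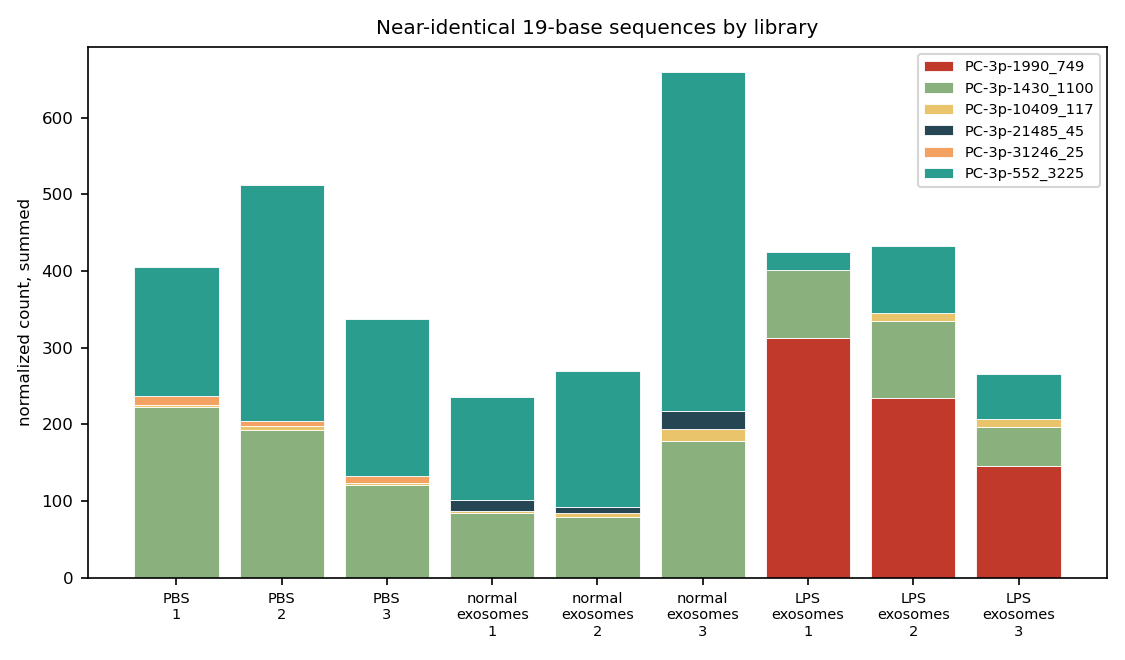
Summed normalized count (y axis, from 0) of the 6 near-identical 19-base sequences in each of the 9 libraries, with 1 colour per sequence. PC-3p-1990_749 (red) appears in the 3 LPS exosome libraries and no others, where PC-3p-552_3225 (teal) takes 5.49% to 22.4% of the sum against 57.2% to 67.0% in the normal exosome libraries. The red part of the sum lowers the share of every other sequence in those libraries.

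After the 7 changed sequences, the next by p were near misses in either direction. PC-5p-5000_271 is mle-miR-1989b-5p_1ss11TC with 1 more base at the 3′ end; miR-1989 is a family of molluscs and annelids. It was listed at 35.7, 60.4 and 52.1 with LPS exosomes and 21.6, 12.0 and 18.9 with normal exosomes, with a log2 fold change of 1.45 ± 0.40 (adjusted p of 0.0781, limma). PC-3p-10933_110 was listed at 0, 0 and 6.80 with LPS exosomes, 11.3, 16.7 and 17.5 with normal exosomes and 18.4, 16.5 and 19.96 with PBS. The exosome groups did not overlap for either sequence. PC-3p-10933_110 reached 10 in the normal exosome libraries alone, so it too had to differ to be tested; it missed the threshold (adjusted p of 0.0790, limma). The value of 0.0140 without LPS exosomes replicate 3 comes from leaving out the single LPS exosome library in which it was listed, and nothing is read from it. PC-3p-9728_126 was listed at 17.5, 7.40 and 0 with LPS exosomes and 51.1, 55.6 and 72.7 with normal exosomes (log2 fold change -3.48 ± 1.16, adjusted p of 0.159, limma). It passed when 10 rather than 1 was added before the log (adjusted p of 0.0163, limma) and when each 0 took the lowest value of its library (0.0227).

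Further sequences with an unadjusted p under 0.05 also missed the threshold. mmu-mir-6240-p5, a line with a mouse name, held 311.3, 314 and 405 with LPS exosomes against 65.8, 126 and 129.7 with normal exosomes (adjusted p of 0.159, limma). It passed without PBS replicate 1 (0.0165) and with the 6 exosome libraries alone (0.0330). miR-375-3p, which in vertebrates acts in the hormone-secreting cells of the pancreas, held 73.9, 43.8 and 88.4 against 121, 136 and 129, with a log2 fold change of -0.95 ± 0.33 (adjusted p of 0.170, limma). miR-278, which acts in fly energy balance, held 82.3, 69.0 and 85.0 against 37.5, 42.6 and 48.2 (log2 fold change 0.87 ± 0.34, adjusted p of 0.257, limma). None of these 3 sequences had overlapping exosome groups. miR-279-3p, known from fly olfactory neurons and JAK/STAT signalling, held 15518, 14908 and 16134 with LPS exosomes against 8040.2, 8801 and 10410.4 with normal exosomes. Its exosome groups were also apart, but the PBS libraries ran from 7905 to 23429, and the log2 fold change of 0.78 ± 0.34 did not pass (adjusted p of 0.300, limma).

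The remaining sequences among the first 20 by p are predicted candidates. PC-3p-4475_307 was listed at 24.8, 28.4 and 27.2 with LPS exosomes and 63.6, 32.4 and 95.8 with normal exosomes, and its log2 fold change of -1.10 ± 0.40 passed only without normal exosomes replicate 2 (adjusted p of 0.0480 against 0.220, limma). PC-5p-2220_666 was listed at 96.1, 87.5 and 101 against 47.7, 73.2 and 51.0, and PC-3p-149_19704 at 2617, 2674 and 2415 against 3639, 3108 and 3167. Their exosome groups did not overlap, but neither passed (adjusted p of 0.291 and 0.300, limma), and the log2 fold change of PC-3p-149_19704 shrank from -0.36 to -0.01 at equal totals. PC-3p-8255_152 was listed at 29.9, 20.96 and 45.3 against 43.1, 58.4 and 66.4, with overlapping groups (adjusted p of 0.300, limma).

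**Figure D4:**
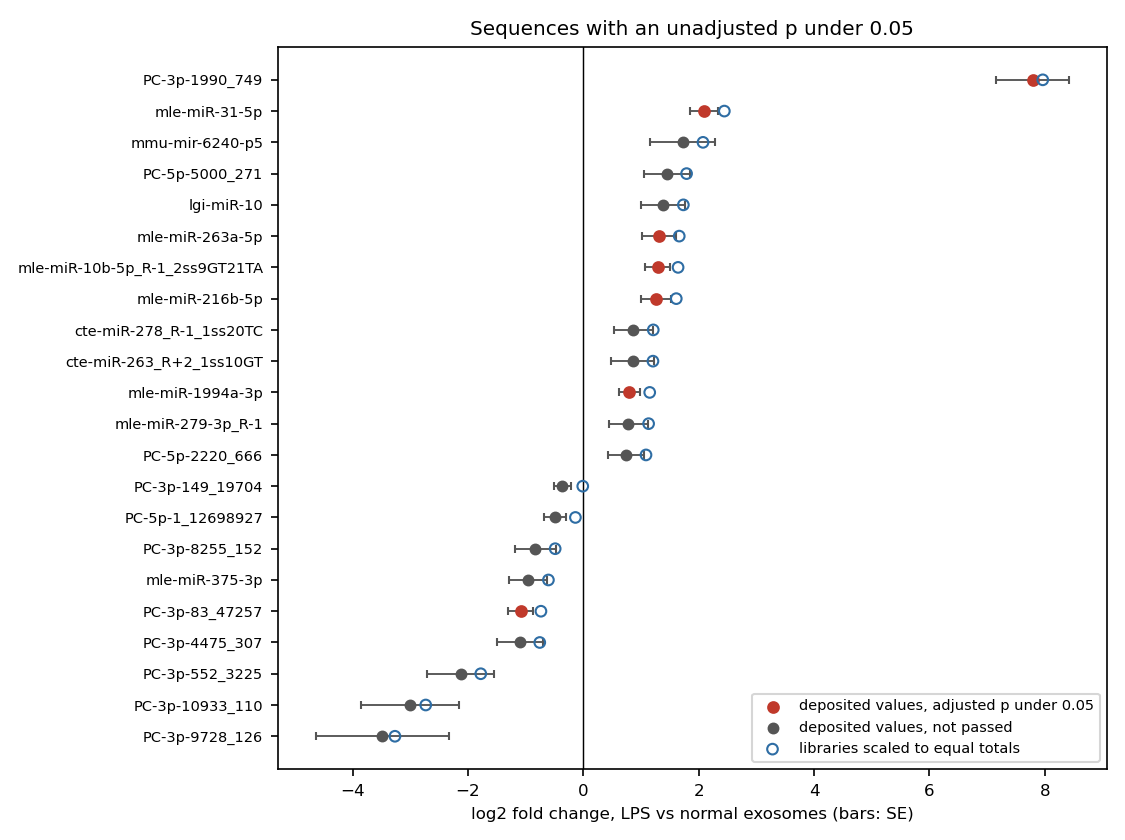
Log2 fold change, LPS over normal exosomes (x axis), of the 22 sequences with an unadjusted p under 0.05; filled points with SE bars are the deposited values (red, the 7 that changed) and open circles the values with libraries scaled to equal totals. Scaling moves every sequence to the right, for example miR-31-5p from 2.09 to 2.44 and PC-3p-83_47257 from -1.09 to -0.73.

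Over all tested sequences, the exosome groups did not overlap for 38 (27%), with LPS exosomes above for 18 (12.8%) and below for 20 (14.2%). As shares of the library total, 35 (24.8%) were above and 4 (2.84%) below. The order of the 2 directions therefore depends on the scaling of the libraries.

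The most abundant miRNAs did not pass. The 10 sequences of highest mean held 93.5% to 95.4% of the signal in the exosome libraries, and their smallest adjusted p was 0.257 (limma). PC-5p-1_12698927, a predicted candidate with the seed of miR-125, held 40.8% ± 3.44 (SD, n = 3) of the signal with LPS exosomes and 44.7% ± 2.30 with normal exosomes. Its log2 fold change was -0.49 ± 0.19 on the deposited values and -0.14 at equal totals. miR-184-3p, a miRNA conserved from flies to humans, held 23.6% ± 2.75 and 22.3% ± 1.06, and miR-100, which is encoded beside let-7 in many animals, held 16.2% ± 2.53 and 15.3% ± 0.883. All 10 had a log2 fold change below 0 on the deposited values, and 7 of them had one above 0 at equal totals, so no direction holds for them as a group. On the deposited values the LPS exosome libraries were all below the normal exosome ones for 4 of the 10, and as shares of the total only miR-96a-5p had groups that did not overlap, at 1.95% ± 0.0734 against 1.61% ± 0.219.

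Summed by seed, 99 families were tested and 5 changed (5.05%), 4 higher and 1 lower; 20 had an unadjusted p under 0.05. They were the families of miR-31 (log2 fold change 2.10 ± 0.24, adjusted p of 0.000599), miR-10b (1.29 ± 0.22, 0.00799), PC-3p-83_47257 (-1.09 ± 0.22, 0.0185), miR-216b (1.25 ± 0.27, 0.0267) and miR-263a (1.31 ± 0.30, 0.0287), all from limma. These families are no evidence beyond their single sequences, because 1 sequence made up 99.1% to 100% of each. The miR-1994a family, with its 2 forms summed, missed the threshold at 0.68 ± 0.18 (adjusted p of 0.0563, limma). The seed GTAATTT, which sums PC-3p-1990_749 with PC-3p-1430_1100, stood at 401, 335 and 196 with LPS exosomes and 84.0, 78.8 and 178 with normal exosomes and did not pass (adjusted p of 0.0597, limma). Without single libraries the count of changed families was 2 to 9: 3 without LPS exosomes replicate 1 or 2, 2 without normal exosomes replicate 1 and 9 without PBS replicate 1.

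None of these 3 large families passed. The 14 sequences with the seed ATCACAG, which include miR-2, gave a log2 fold change of -0.41 (adjusted p of 0.223, limma), the seed ACCCGTA of miR-100 gave -0.29 (0.520), and the 10 sequences with the seed ATTGCAC of miR-92 gave -0.14 (0.681). At equal totals the fold change of the latter pair was above 0 instead. With quantile normalization 2 families changed, 2 higher and 0 lower.

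The share of a form within its own miRNA does not depend on the scaling between libraries. There were 27 pairs of tested forms, 25 in which 1 sequence contains the other (19 of them with extra bases at the 3′ end alone) and 2 pairs of hairpin arms. The groups did not overlap for 3 pairs (11.1%), and in each the longer form had the higher share with LPS exosomes. PC-5p-5000_271 made up 7.55%, 11.1% and 8.85% of the sum with its miR-1989b form with LPS exosomes, and 5.54%, 3.62% and 4.38% with normal exosomes. Full-length miR-1994a-3p made up 68.6%, 70.2% and 74.5% of the 2 forms against 66.7%, 65.6% and 64.0%. For miR-100 against a form that lacks its first 4 bases the shares were 99.86%, 99.87% and 99.86% against 99.85%, 99.80% and 99.61%. Each had an exact two-sided permutation p of 0.1, the smallest that 3 against 3 libraries can give, and 0.859 after Benjamini-Hochberg adjustment over the 27 pairs. Without LPS exosomes replicate 1 the groups did not overlap for 8 pairs, without normal exosomes replicate 1 for 5 and without its replicate 3 for 7. Groups with fewer libraries separate more easily, so nothing is read from these higher counts.

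Sequences were also grouped by family or known role. Beside each list stands the median log2 fold change of its tested members, against -0.17 for all tested sequences on the deposited values and 0.17 at equal totals, and its count of changed members is to be read against 4.96% of all tested sequences (4.26% higher and 0.709% lower). With so few members tested, 1 changed member is a description and sets no list apart. Of the immune-associated families 7 of 13 sequences were tested and 1 passed, miR-31, higher with LPS than with normal exosomes. The median of these families was 0.49 (0.84 at equal totals). Their summed share of the signal was 0.416%, 0.466% and 0.606% with LPS exosomes, 0.189%, 0.216% and 0.238% with normal exosomes and 0.345%, 0.396% and 0.617% with PBS, most of it from miR-279 and miR-31. Within this list miR-34-5p held 520.0, 799 and 630.2 against 355, 567 and 470.5, and the groups overlapped (log2 fold change 0.49 ± 0.29, adjusted p of 0.423, limma). In the miR-10 family 2 of 3 were tested and 1 rose, with a median of 1.34 (1.69 at equal totals). Of miR-1984 to miR-2001, numbers given to families first described in molluscs and annelids, 6 of 9 were tested, with a median of 0.41 (0.75 at equal totals). Of these 1 passed, miR-1994a-3p, higher with LPS than with normal exosomes.

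No member passed in the lists of developmental and cluster miRNAs. The let-7 complex (let-7, miR-100 and miR-125 with their relatives) had 12 of 16 tested and a median of -0.55, the miR-2 and miR-71 cluster 11 of 14 and -0.17, and the miR-92 family 5 of 7 and -0.21. At equal totals these medians were -0.21, 0.16 and 0.14, so the sign of the latter pair turned with the scaling. The lists go by miRNA number, so predicted candidates are not in them. The let-7 complex thus leaves out the abundant PC-5p-1_12698927, which is cte-miR-125_R-3_1ss12CA with 3 more bases at its 3′ end. Predicted candidates had 48 of 204 tested, 1 higher and 1 lower, with a median of -0.17 that turned to 0.18 at equal totals.

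Lists for other tissues that a hemolymph draw could hold were also read. Epithelial and sensory families had 5 of 9 sequences tested and 1 that rose, miR-263a-5p, with a median of 0.62; their share of the signal was 1.89%, 2.01% and 2.01% with LPS exosomes and 1.78%, 1.71% and 1.37% with normal exosomes. Gut and endocrine families had 4 of 7 tested and 1 that rose, miR-216b-5p, which made up most of their signal, with a median of -1.16; their share was 0.0165% to 0.0234% against 0.00764% to 0.0119%. The shares of both lists were higher in all LPS exosome libraries, as were those of 24.8% of single tested sequences, and the part of other tissues in the results was not tested. Muscle families had 4 of 6 tested and none that changed, led by miR-133-3p, with a median of -0.24 that turned to 0.12 at equal totals. Their shares were 4.20%, 3.60% and 3.47% with LPS exosomes against 2.84%, 3.58% and 4.22% with normal exosomes. Neural families had 1 of 4 tested, miR-7, at 824, 599 and 401 against 728, 580.2 and 207 (log2 fold change 0.39 ± 0.46, adjusted p of 0.653, limma). Vertebrate blood and liver families had 1 of 2 tested, miR-122, at 29.1, 106 and 158 against 135, 524 and 62.2, and it did not pass (adjusted p of 0.608, limma). No miRNA is used here as a marker of hemocytes, so the labelled cell type was not checked.

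3 libraries stood apart: LPS exosomes replicate 1 and normal exosomes replicates 2 and 3. Over the tested sequences, Pearson's r of the log2 values was 0.942 to 0.987 for pairs within an exosome group and 0.911 to 0.963 between the groups; these are correlations across sequences, which are not independent. On the first principal component (48.2% of the variance) LPS exosomes lay at -11.7, -4.53 and -1.49 and normal exosomes at 6.16, 10.4 and 1.21. LPS exosomes replicate 1 was the farthest from the other group, and leaving it out lowered the count of changed sequences from 7 to 2, the lowest count of any single library left out. The second (22.7%) set normal exosomes replicate 3 apart, at -10.4. That library held a summed normalized count of 14052 in the 18 tested sequences of 18 or 19 bases, against 5739 to 7118 in the other exosome libraries, and it was the highest of the 6 for 14 of the 18. PC-3p-1990_749 and PC-3p-552_3225 are among these short sequences, and the part of this library's short sequences in their values was not tested. With sequences of 20 bases or more alone, 6 of the 7 still changed, 5 higher and 1 lower.

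Normal exosomes replicate 2 was the highest exosome library for 11 of 13 tested sequences whose miRNA number appears under vertebrate names alone. miR-122, miR-192 and miR-194 are examples, and the other 2, miR-143 and miR-21, were highest in LPS exosomes replicate 3. The set goes by name and not by seed: cfa-miR-99b and cfa-miR-22 share their seeds with lgi-miR-100 and mle-miR-745b-3p. The summed normalized counts of the 13 were 105, 486.3 and 698 with LPS exosomes, 648, 1796 and 276 with normal exosomes and 211, 1217 and 652 with PBS. LPS exosomes replicate 1 had the lowest of these sums. The groups overlapped, none of the 13 changed, and the set was chosen after its values were seen.

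**Figure D5:**
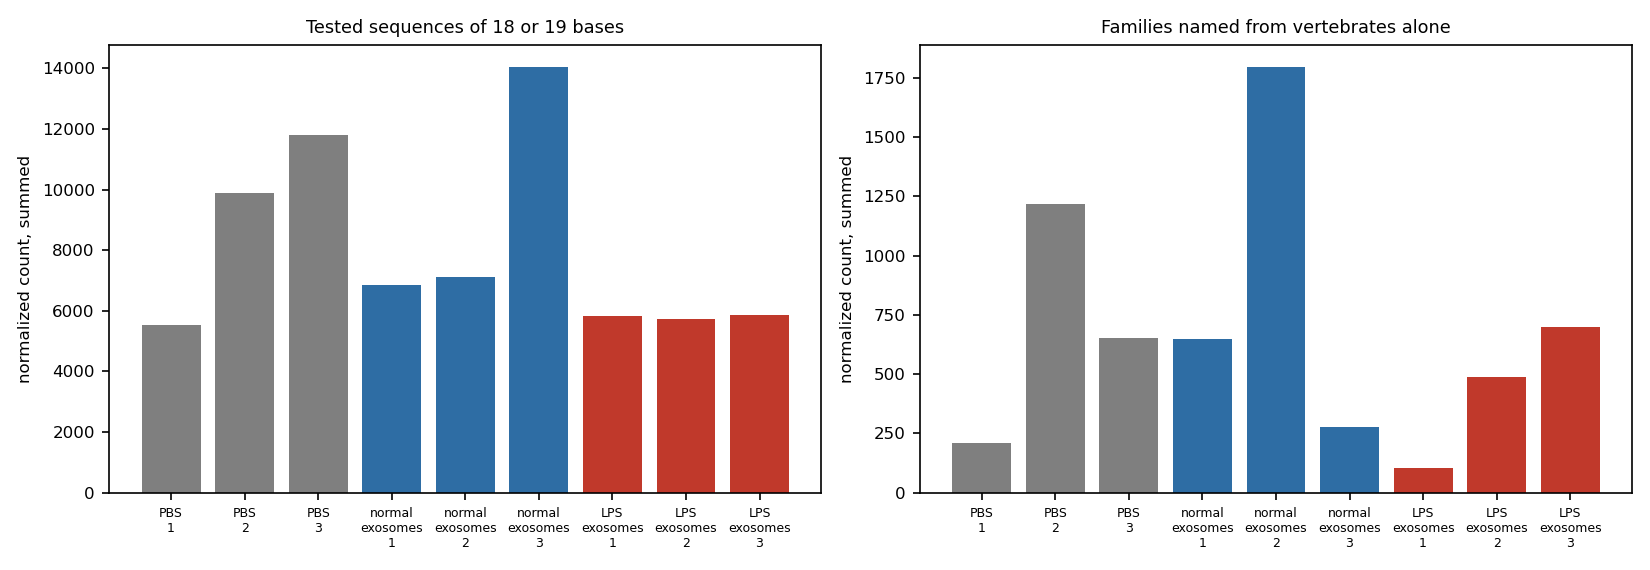
Summed normalized count (y axes, from 0) by library of the 18 tested sequences of 18 or 19 bases (left) and of 13 tested sequences whose miRNA number appears under vertebrate names alone (right), in grey for PBS, blue for normal exosomes and red for LPS exosomes. Normal exosomes replicate 3 is highest on the left, at 14052, and normal exosomes replicate 2 on the right, at 1796. The right panel leaves out names with a base substitution or a high miRNA number.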

How the data were processed

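TruSeq small RNA libraries were sequenced on a HiSeq. Per the labels' protocols, the program ACGT101-miR filtered out adapter dimers, low-quality reads, other RNA classes and repeats. The deposited values are a signal that the authors' file headers call a normalized count; their normalization, the miRBase release, the build and the aligner were not given in the sources used here. No genome was given, so no positions are printed. Values of a library were nearly always whole multiples of 1 step, but whole reads were not recovered to the standard required, so depth in reads is unknown. The design named a count test for raw counts alone, and the test for normalized values was used.

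Lines with an identical sequence were merged. limma 3.58.1 (R 4.3.3, statmod 1.5.0; trend and robust settings) was fitted to log2(value + 1) of the 9 libraries with 1 mean per group (6 residual degrees of freedom), and the LPS minus normal exosome contrast was adjusted over 141 sequences (99 families for sums by bases 2 to 8). The PBS libraries share the estimate of the spread. Form shares were compared with exact two-sided permutation tests. The fit was tested on simulated data with 141 sequences in 20 rounds. In each round 20 sequences were made to differ, with normally distributed noise at the spread of each sequence. It recovered 34% of the simulated 2-fold differences and 64% of the 4-fold ones. With 7 sequences called in the data these rates need not carry over. False ones made up 5.31% of the sequences called. A sequence that did not pass may therefore still differ by such amounts. Families were not simulated, and a family that did not pass may still differ too.

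Sequences to be named were the changed ones, the next by p to make 20, the 10 of highest mean, those listed at 0 throughout 1 exosome group and above 0 in the other, relatives by seed or containment of the changed ones, leading members of each list, and the changed families with the next 3. List membership follows the miRNA number in the name, whatever the species. Members, lists and groupings were chosen with earlier results of these data known. Alternatives covered other scalings, filters, pseudocounts, fit settings, a replicate block, unmerged lines and leaving out each library; the restriction to 20 bases or more was added after seeing the data.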

Additional observations from a re-analysis of the deposited data

How the results depend on the processing

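The count of changed sequences was 5 to 9 under all alternatives that kept every library except quantile normalization, where it was 3, and 2 to 9 without single libraries. The count of changed families was 2 with quantile normalization, 10 at equal totals, 10 with a pseudocount of 10, 10 with zeros set to the lowest value of the library, and 2 to 9 without single libraries. Pairs of forms without overlap numbered 3 to 8 without single libraries, where groups with fewer libraries separate more easily. The 7 changed sequences kept their sign in all alternatives. Among abundant sequences, the log2 fold change turned positive at equal totals for miR-71 (0.291), miR-96a (0.284), miR-92 (0.109), miR-133 (0.097), let-7c (0.077), miR-184 (0.075) and miR-100 (0.070), with median-of-ratios scaling for miR-96a (0.0044) and miR-71 (0.011), and with quantile normalization for let-7c (0.094), miR-96a (0.060) and miR-71 (0.329). Leaving out 1 library gave -0.23 to 0.065 for miR-96a, positive when LPS exosomes replicate 3 (0.014) or normal exosomes replicate 1 (0.065) was dropped, and -0.13 to 0.0019 for miR-71, positive when normal exosomes replicate 2 was dropped. None of these abundant sequences passed, and the cause was not tested beyond the change of scaling or library itself.

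With the replicate number as a block, 8 sequences (6 higher and 2 lower) and 7 families changed. The labels do not say whether the replicate numbers pair the libraries. Deviations from the group means correlated at -0.27 to 0.05 for same-numbered LPS and normal exosome libraries. For libraries of different number they correlated at -0.15 to 0.32. With 3 libraries a group these values cannot decide whether libraries were paired, so the block is a check only. The planned edgeR and DESeq2 alternatives were not run, because whole reads could not be recovered from the normalized values. With 3 libraries a group, depth in reads unknown and values under about 1.17 to 3.08 listed as 0, small differences and low sequences could not be resolved. Larger differences can be missed too, since the fit recovered 34% of simulated 2-fold differences and 64% of 4-fold ones. A result that did not pass is thus no evidence of an equal level.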
